A study of Mus musculus with 3 samples.

Results

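Macrophages of infarcted mouse hearts were divided by the number of Cx3cr1 molecules counted in each cell, and those with 2 or more were set against matched macrophages with 0. The cells were chosen by their counts of Cx3cr1, C1q and lineage genes. A macrophage was a cell with at least 200 genes detected, C1qa, C1qb and C1qc together at 0.1% or more of its molecules, no molecule of Cd3e, Cd3d, Cd3g or Cd79a, and S100a8 plus S100a9 below 1%. By this rule 14451 of the 25762 cells were macrophages, of which 6546 held 2 or more Cx3cr1 molecules, 1615 held 1 and 6290 held 0. The cells came from 18 sample tags in 3 multiplexed libraries of CD45-selected heart cells, and each tag, described in the protocol as a biological replicate, was taken as 1 heart. Mice of the genotypes F7fl/fl CX3CR1Cre and F7fl/fl WT were pooled, so every animal carried floxed alleles of F7, the gene of coagulation factor VII, and some also carried a Cre recombinase named for Cx3cr1. Infarction was by permanent ligation, with hearts taken at several time points. No tag is tied to a genotype in the labels used here and no time is stated in them, although the description of library 1 carries the letters d3, which are not explained. The construct of the Cre allele, the age of the mice and the number of animals per tag are not given in them. The comparison is therefore between cells of the same file, that is of 1 tag, and p-values measure the spread between these 18 files.

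CX3CR1, encoded by Cx3cr1 (ENSMUSG00000052336, chr9:119901616-120069879, minus strand, GRCm38), is a chemokine receptor of monocytes, many tissue macrophages and brain microglia. Its single ligand, CX3CL1 (fractalkine), is made as a membrane protein that holds receptor-bearing cells and is released when the proteases ADAM10 and ADAM17 cut it. The receptor signals through inhibitory G proteins. In the heart, Cx3cr1 is found on resident macrophages and on cells derived from recruited monocytes, and the gene's promoter is widely used to drive Cre in the myeloid lineage.

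The stretches of promoter sequence below are given because genes of 2 groups described further on, MHC class II and the cell cycle, moved with Cx3cr1, and promoters of both groups are known to carry the CCAAT box bound by the factor NF-Y; F7 is shown as the gene of the floxed alleles. Each is the 130 bases before the annotated start of the gene from RefSeq (GRCm38.p6), 5′ to 3′ on the gene's own strand, with CCAAT and its reverse complement ATTGG in capitals. The stretch of Cx3cr1 lies at chr9:120068297-120068426 (minus strand), H2-Aa at chr17:34287824-34287953 (minus), H2-Eb1 at chr17:34305737-34305866 (plus), Top2a at chr11:99024190-99024319 (minus), Ube2c at chr2:164769799-164769928 (plus) and F7 at chr8:13025904-13026033 (plus). That of Cx3cr1 lies inside the span given above for the gene, so the RefSeq start used here is not the start of that span on the minus strand, 120069879.
Cx3cr1: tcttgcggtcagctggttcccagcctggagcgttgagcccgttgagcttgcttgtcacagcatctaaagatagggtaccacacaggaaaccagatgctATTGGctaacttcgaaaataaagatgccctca
H2-Aa: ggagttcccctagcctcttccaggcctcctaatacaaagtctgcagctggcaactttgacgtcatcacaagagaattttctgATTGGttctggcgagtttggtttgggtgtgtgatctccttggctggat
H2-Eb1: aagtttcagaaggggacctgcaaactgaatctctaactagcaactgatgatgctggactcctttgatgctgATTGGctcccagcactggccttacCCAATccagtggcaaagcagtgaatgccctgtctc
Top2a: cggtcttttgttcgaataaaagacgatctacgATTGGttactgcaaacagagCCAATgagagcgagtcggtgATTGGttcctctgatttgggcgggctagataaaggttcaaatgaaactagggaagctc
Ube2c: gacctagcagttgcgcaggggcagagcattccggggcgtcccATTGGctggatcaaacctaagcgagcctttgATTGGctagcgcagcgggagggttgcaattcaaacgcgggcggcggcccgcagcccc
F7: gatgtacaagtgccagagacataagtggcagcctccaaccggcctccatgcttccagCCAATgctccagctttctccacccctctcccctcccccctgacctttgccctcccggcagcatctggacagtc

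The stretch of Cx3cr1 held 1 such motif, with its leading base 32 bases before the start, that of Top2a held 3, and those of H2-Eb1 and Ube2c held 2 each. Over the 150 bases before the start, a CCAAT on either strand was present in 24.5% of all 32851 RefSeq windows. Among the 8236 tested genes that had a window, it was present in 2638 (32.0%). It was present in 16 of 18 cell cycle genes with a window (88.9%), of which 11 held 2 or more, in 6 of 10 MHC class II genes (60.0%), in 10 of 19 microglial genes (52.6%), in 4 of 8 genes of cavity macrophages, in 4 of 12 wound genes (33.3%) and in 5 of 25 coagulation genes. The genes of the last 3 lists that passed the test were lower with Cx3cr1, apart from 2 of coagulation. Against the 32.0% of tested genes, the wound list was close, the coagulation list was below, and the cavity list held only 8 genes. These counts therefore do not show whether the motif goes with either direction. A match describes the letters of the window and is not a measured binding site.

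Each file contributed 416 to 1414 macrophages (median 668.5). The share of them with 2 or more Cx3cr1 molecules ran from 28.14% to 69.17% over the 18 files, with a median of 45.35% and an SD of 10.6 percentage points. It was 28.14% to 54.37% in the 7 files of library 1, 38.89% to 69.17% in the 5 of library 2 and 41.43% to 62.15% in the 6 of library 3, so the libraries overlapped. After each cell was thinned to 5000 molecules, leaving out shallower cells, the share was 11.58% to 52.34% (median 26.58%), and the median was 16.95% in library 1, 27.99% in library 2 and 29.7% in library 3. Library 1 was processed with another version of the pipeline and had deeper cells, with file medians of 21208 to 26674 molecules per macrophage against 12110 to 19483 in the other libraries; library, pipeline and any time or genotype of the pooled hearts cannot be told apart. The level of Cx3cr1 over all macrophages of a file was 85.88 to 470.1 CPM (molecules per 1000000 of the summed total), with a median of 174.1.

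**Figure D1:**
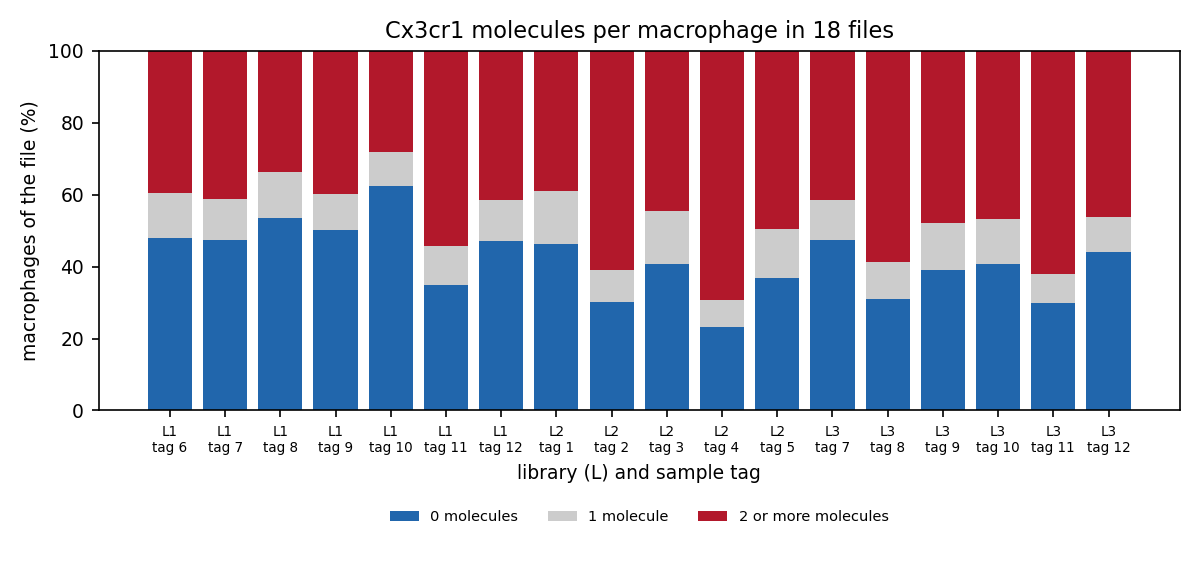
Share of macrophages with 0, 1 and 2 or more Cx3cr1 molecules (vertical axis, percent of the file's macrophages) in each of 18 files, by library and sample tag. The share with 2 or more ran from 28.14% to 69.17%, and 7.497% to 14.96% of macrophages held exactly 1 molecule.

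Free RNA in the wells can give single molecules to cells that do not make a gene, so Cx3cr1 was also counted in cells taken as B cells or neutrophils. Both had C1q below 0.1%. The B cells were those with Cd79a and no Cd3 molecule, and the neutrophils those with S100a8 plus S100a9 at 1% or more. No other marker was required, so other cells can be among them. Of 501 B cells, 58 held 2 or more molecules (11.58%, exact 95% interval 8.909% to 14.71%, median depth 8916 molecules), and of 443 neutrophils, 10 did (2.257%, 1.088% to 4.112%, median depth 3955). In macrophages the share was 45.3% (44.48% to 46.11%) at a median depth of 20461. Part of the macrophages with low Cx3cr1 counts can be background, and whether the molecules in the other cells were background was not tested. These intervals cover counting error only. At the edge of the macrophage rule, 21.28% of the 329 cells with C1q at 0.08% to 0.1% and 23.89% of the 314 cells with C1q at 0.1% to 0.12% held 2 or more molecules.

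For the comparison, equal numbers of cells with 2 or more and with 0 molecules were drawn within each file and quartile of total molecules, and their counts were summed, which gave 4992 cells a side and 138 to 585 per file and side. A file's sum held 2472392 to 17558354 molecules for cells with Cx3cr1 and 2312650 to 17440130 for those without. Median depth was 17599 against 17356 molecules per cell over the file medians, and was higher with Cx3cr1 in 6 of 18 files. Of the genes the rule used, Cx3cr1 was at 224.1 to 654.7 CPM (median 412.8) on the positive side by construction, and C1qa, C1qb and C1qc were each higher there in 18 of 18 files, at pooled levels of 1560 against 1140, 2634 against 2231 and 2454 against 2074 CPM. These genes were given no test.

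In edgeR's quasi-likelihood test with the file as a block, 2368 of the 10376 genes tested were higher with Cx3cr1 (22.8%) and 2563 were lower (24.7%) at an adjusted p under 0.05. Since 47.5% of all genes tested were called in one direction or the other, the counts given for gene lists are to be read against these shares. Most differences were small. Only 204 genes (1.97%) were higher, and 137 (1.32%) lower, by a log2 difference of 1 or more, and the median over all genes was -0.01. Scaled by library totals in place of TMM factors, 3594 genes were higher (34.6%) and 1622 lower (15.6%), a shift of the median gene by less than 0.1. The 2 sides did not overlap over the 18 files for 24 genes above (0.231%) and 2 below (0.0193%). The 12 genes that were higher by the largest log2 difference and reached 20 CPM were the mitotic genes Aspm, Cdc20, Prr11, Kif4, Cenpf, Knl1 and Kif20a, the sialomucin gene Spn, the inhibitory lectin gene Siglece, the membrane protein gene Tmem176b, the MHC class II transactivator Ciita and the prostaglandin-degrading enzyme gene Hpgd, from 2.10 for Aspm to 1.72 for Hpgd. The 12 lowest were Prg4, Alox15, Serpinb2, Saa3, Selp, Marco, Slpi, Il6, F5, Ccl24, Padi4 and Lrg1, from -3.47 for Prg4 to -2.22 for Lrg1.

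Of the receptor's own pathway, Cx3cl1, the ligand, was at 0 to 2.17 CPM on the positive side and 0 to 1.73 on the negative, 48 and 30 molecules in all, and was too low to be tested. Adam17, 1 of the 2 proteases that cut the ligand, was at 195 to 265 CPM (median 228) with Cx3cr1 and 131 to 222 (median 184) without, a log2 difference of 0.27 ± 0.03 (SE, 18 of 18 files, adjusted p = 2.5e-07). The sides of Adam17 overlapped. Adam10, the other, did not pass the test, at medians of 232 and 229 CPM (-0.08 ± 0.04, higher in 9 files and lower in 9, adjusted p = 0.12).

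Of the 15 tested genes of ligand, sheddases and downstream signalling, 9 were higher and 4 lower, with a median of 0.15 beside -0.01 over all genes. Pik3cg, the PI3-kinase subunit driven by G-protein βγ, was at 68.4 to 106 CPM (median 85.6) against 38.1 to 71.2 (median 59.5), higher by 0.59 ± 0.04 (18 of 18 files, adjusted p = 1.1e-10). Rgs10, which shuts off G-protein signalling, was higher by 0.46 and the β-arrestin gene Arrb2 by 0.42. The inhibitory G-protein subunits went both ways: Gnai2 was higher by 0.13 and Gnai3 lower by 0.34, in 18 of 18 files each. Gng5, a γ subunit, was lower by 0.27.

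Genes that macrophages share with microglia were mostly higher, 17 of 22 tested with 1 lower (median 0.44). Tmem119, a membrane protein widely used to mark microglia, was at 37.9 to 124 CPM (median 49.4) with Cx3cr1 and 9.36 to 37.9 (median 18.1) without. The lowest positive file, at 37.93 CPM, lay just above the highest negative file, at 37.9 CPM, so the sides did not overlap, by a narrow gap (log2 difference 1.55 ± 0.07, adjusted p = 3.1e-13). Gpr34, a lysophospholipid receptor gene, was at 13.3 to 91 CPM (median 48.5) against 3.02 to 51 (median 12.2), higher by 1.59 ± 0.09 in 18 of 18 files. Fcrls, an Fc-receptor-like gene of microglia, was at 474 to 1331 CPM (median 732) against 128 to 545 (median 310), higher by 1.26 ± 0.07.

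Smaller differences in the same direction were found for the purinergic receptor genes P2ry12 (0.88), which steers microglial processes towards ATP, and P2ry13 (0.84), for Olfml3 (0.91), for the TGF-β receptor gene Tgfbr1 (0.79) and for Csf1r (0.48), the receptor that macrophages need to survive. Mef2c, a transcription factor of microglia, was at 100 to 183 CPM (median 134) against 49.3 to 91.2 (median 77.6), with no overlap (0.87 ± 0.05, adjusted p = 1.3e-12). The exception was Ltc4s, the leukotriene C4 synthase gene, at 8.49 to 409 CPM (median 64.2) against 13 to 832 (median 192), lower by 1.39 ± 0.13 in 18 of 18 files. Sparc, a matrix protein gene that fibroblasts also make, was higher by 0.99. Trem2 (-0.15), Entpd1 (-0.04), Selplg (0.06) and Lgmn (0.00) did not pass the test. Sall1, Siglech and Slc2a5 were too low to be tested.

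The genes of MHC class II, the proteins that show peptides to CD4 T cells, were higher together: 11 of 14 tested were higher and 1 lower (median 0.99). H2-Aa, a class II chain, was at 596 to 4156 CPM (median 1685) with Cx3cr1 and 92.5 to 2267 (median 597) without, higher by 1.49 ± 0.12 in 18 of 18 files (adjusted p = 9.2e-10). H2-Ab1 (1.46), H2-Eb1 (1.60) and the invariant chain Cd74, at medians of 2606 and 988 CPM, were also higher. The sides overlapped over files for each of them.

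Ciita, the transactivator that switches the class II genes on, was at 11.9 to 38.4 CPM (median 22.1) against 1.96 to 17.7 (median 6.23), higher by 1.76 ± 0.11 (18 of 18 files, adjusted p = 2.1e-11). The peptide loaders H2-DMa (1.20) and H2-DMb1 (1.11) and the costimulatory genes Cd83 (0.88) and Cd86 (0.41) were higher too. Cd80 (-0.23) and Cd40 (0.06) did not pass. Ctss, the protease that trims the invariant chain, was lower by 0.17. The cells were then also matched on their share of H2-Aa, H2-Ab1, H2-Eb1 and Cd74 molecules. With this matching H2-Aa, 1 of the genes matched on, was at 0.35, Ciita was at 0.70 and the list's median was 0.33. Itgax, the integrin CD11c, turned from 0.51 to -0.14 (adjusted p = 0.18).

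Cell cycle genes were higher in 19 of 20 cases, none lower (median 1.28). Mki67, a protein of dividing cells, was at 117 to 396 CPM (median 167) against 29.1 to 161 (median 79.3), higher by 1.37 ± 0.14 in 18 of 18 files (adjusted p = 1.9e-08). Top2a, the topoisomerase that untangles chromosomes before division, was at 99.5 to 469 CPM (median 178) against 11.2 to 169 (median 75.6), higher by 1.69 ± 0.18. The 2 sides overlapped in both cases.

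The differences ranged widely within the list. Cenpf, a kinetochore protein gene, was higher by 1.83, Ube2c, a ubiquitin enzyme of mitotic exit, by 1.68 and the microtubule regulator Stmn1 by 1.26, against 0.49 for Mcm3, 0.51 for Mcm6 and 0.71 for Mcm5 of the replicative helicase. Among other genes of DNA synthesis, Pclaf was higher by 1.39, Tyms by 0.87 and Rrm2 by 0.82. Pcna, the clamp of the DNA polymerase, was at medians of 229 and 194 CPM and did not pass (0.11 ± 0.05, adjusted p = 0.062). Cells holding Mki67 or Top2a made up 45.47% of the positive side and 36.14% of the negative. Without them 19.4% of all genes tested were higher and 19.6% lower, and 5 of 9 tested cell cycle genes were higher and 1 lower (median 0.41), while the medians of MHC class II (0.98) and the microglial genes (0.48) stood nearly as before.

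Among genes of classical monocytes, Ccr2 and most others went opposite ways. Ccr2, the receptor by which classical monocytes leave the bone marrow, was at 376 to 987 CPM (median 539) with Cx3cr1 and 58.9 to 472 (median 221) without, higher by 1.37 ± 0.10 in 18 of 18 files (adjusted p = 1.1e-10). Of the 14 genes of classical monocytes, Ccr2 and Ms4a4c (0.61) were higher and 9 were lower (median -0.58). Vcan, a matrix proteoglycan gene, was lower by 1.13, and Fn1, the fibronectin gene, by 0.98. Ly6c2, a surface marker of classical monocytes, did not pass (-0.26 ± 0.17, adjusted p = 0.21).

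Of 11 tested genes of non-classical monocytes, which carry much Cx3cr1 in blood, 5 were higher and 1 lower (median 0.29). Spn (CD43) was at 19.6 to 54.2 CPM (median 31.3) against 3.61 to 21.2 (median 7.51), higher by 1.83 ± 0.08 in 18 of 18 files (adjusted p = 1.5e-13). Pou2f2, a transcription factor of these cells, was higher by 0.82. Cd36, a scavenger receptor for oxidised lipid, was lower by 1.17. Without library 1, where 15.8% of all genes tested were higher and 15.9% lower, the list's median was 0.07. Ace (0.54), Treml4 (0.50) and Adgre4 (0.24), other markers of these monocytes, did not pass.

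**Figure D2:**
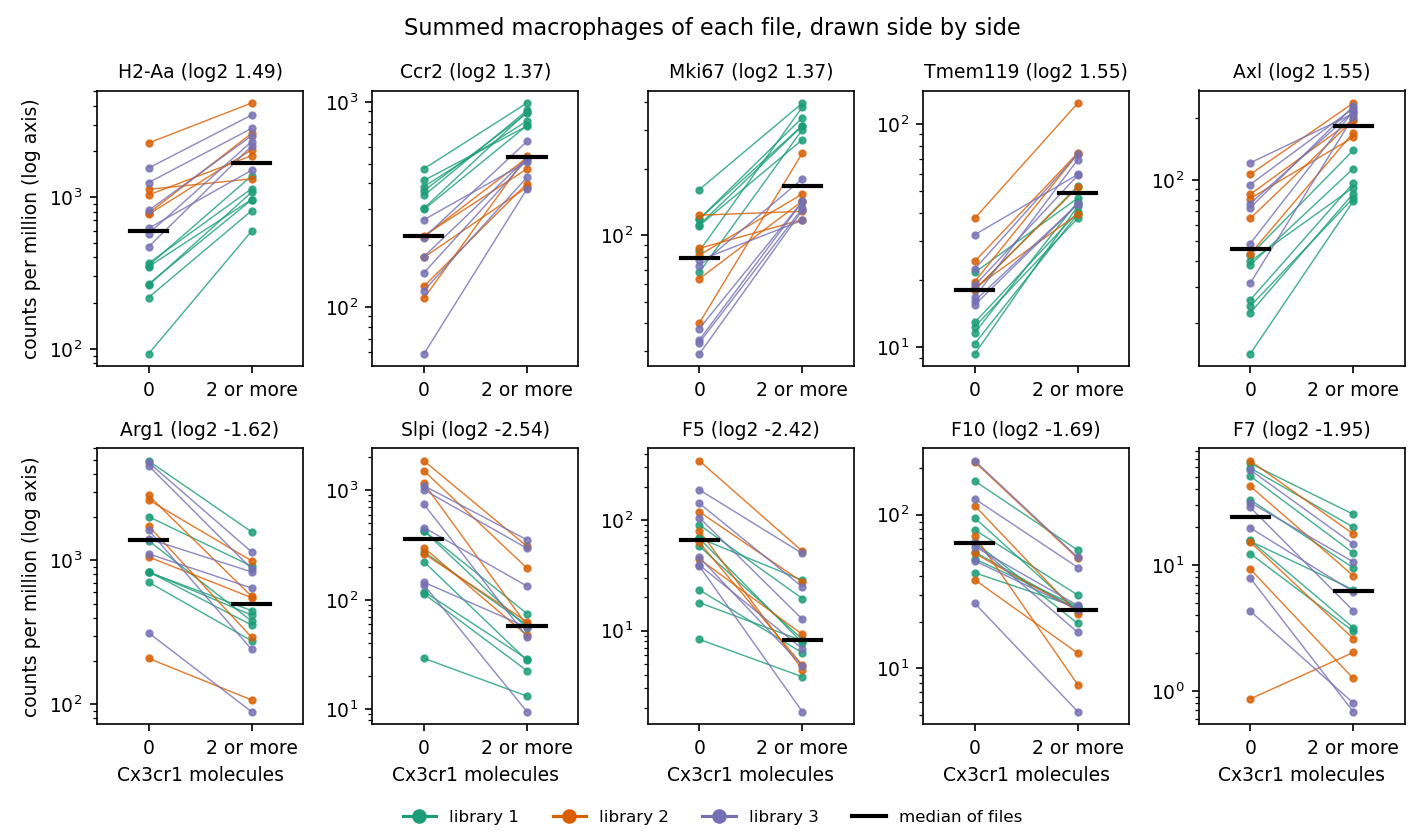
Level of 10 genes (vertical log axis, CPM) in the summed macrophages of each file with 0 and with 2 or more Cx3cr1 molecules. Lines join the 2 sides of a file, colours mark the library and black bars the median of 18 files; H2-Aa, Ccr2, Mki67, Tmem119 and Axl were higher with Cx3cr1 in every file, and F7 was lower in 17 of 18.

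Wound and acute-phase genes were lower in 16 of 16 cases (median -1.06). Arg1, the enzyme that turns arginine into ornithine, was at 88.8 to 1579 CPM (median 499) with Cx3cr1 and 208 to 4919 (median 1391) without, lower by 1.62 ± 0.14 in 18 of 18 files (adjusted p = 2.1e-09). Slpi, an inhibitor of neutrophil elastase, was at 9.52 to 354 CPM (median 57.3) against 29.2 to 1863 (median 363), lower by 2.54 ± 0.18 in 18 of 18 files. Saa3, an acute-phase serum amyloid gene, was lower by 2.78 in 17 of 18 files. Clec4d, a C-type lectin receptor for mycobacterial glycolipid, was lower by 1.15. The sides overlapped for each of these genes.

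Genes known from macrophages of the body cavities were lower in 13 of 13 cases, with the lowest median of the 27 lists (-1.99). Prg4, the lubricin gene, was at 0.913 to 63.9 CPM (median 9.04) against 1.2 to 550 (median 163), lower by 3.47 ± 0.40 in 17 of 18 files (adjusted p = 1.7e-07). Alox15, a lipoxygenase, was at 0.291 to 18 CPM (median 1.95) against 1.15 to 96 (median 37.6), lower by 3.44 ± 0.38. Gata6, the transcription factor that defines cavity macrophages, was lower by 1.52. At least 1 molecule of Prg4, Alox15, Selp, Gata6 or Ltbp1 was found in 9.535% of positive and 15.71% of negative cells. Without those cells, where 23.6% of all genes tested were higher and 25.0% lower, 6 of 6 genes of the list still tested were lower (median -0.99), Serpinb2 moved from -3.04 to -1.04, Saa3 to -1.72, F5 from -2.42 to -1.50 and Ltc4s to -0.73, and the median of the wound list was -0.86.

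Coagulation genes were lower in 14 of 24 cases and higher in 2 (median -0.35). F7, the factor that the floxed alleles concern, was at 0.685 to 25.3 CPM (median 6.26) in cells with Cx3cr1 and 0.865 to 67.2 (median 24.2) in those without, lower by 1.95 ± 0.11 in 17 of 18 files (adjusted p = 2.9e-12). In all, 1235 F7 molecules were counted on the positive side and 4070 on the negative. In the 15 files with more than 3 molecules on both sides, the level without Cx3cr1 was 2.424 to 7.402 times that with it (median 3.889), and the 1 file with the opposite order held 5 molecules against 2. Since some of the hearts carried a Cre named for Cx3cr1 and the tags are not tied to genotypes here, lower F7 expression and Cre deletion in the Cx3cr1 cells cannot be told apart from these values.

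The partners of factor VII differed in the same direction. F10, the substrate of the factor VII complex, was at 5.22 to 58.7 CPM (median 24.1) against 26.5 to 224 (median 65.6), lower by 1.69 ± 0.11 in 18 of 18 files. F3, tissue factor, which binds factor VII and starts clotting, was at 0.768 to 21.5 CPM (median 2.96) against 4.01 to 90.3 (median 14.9), lower by 2.01 ± 0.22. F5, the cofactor of factor X, was at 1.84 to 52.2 CPM (median 8.21) against 8.31 to 344 (median 65.5), lower by 2.42 ± 0.16. None of these 3 genes was named as floxed, and whether their lower levels bear on that of F7 was not tested.

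Of the fibrinolysis genes, Plau, the urokinase gene, was higher by 0.50 ± 0.08 in 16 of 18 files. Its receptor Plaur was lower by 0.46, and the plasminogen activator inhibitor gene Serpinb2 by 3.04. Thbd, thrombomodulin, was lower by 0.76. F9 was the other coagulation gene that was higher (0.56), at a median of 4.11 against 2.67 CPM.

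Genes of resident heart macrophages were lower in 9 of 14 cases and higher in 2 (median -0.41). Lyve1, a hyaluronan receptor of perivascular macrophages, was at 1.3 to 153 CPM (median 12.9) against 5.04 to 404 (median 102), lower by 1.72 ± 0.31 in 16 of 18 files. Fcna, the ficolin gene, was lower by 1.96 and moved to -1.26 without the cells with cavity genes. Folr2, a folate receptor gene, was lower by 0.58. Timd4, a receptor for dying cells, was at medians of 1.16 and 5.14 CPM and lower by 1.63 ± 0.40, but in only 12 of 18 files. Mrc1, the mannose receptor CD206, was higher by 0.22, and Mgl2, a galactose lectin, by 0.88; Mgl2 did not pass without library 1 (0.20, adjusted p = 0.63) and was at 1.79 in library 1 and -0.56 in library 2.

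Lipid-handling genes were lower in 21 of 24 cases, none higher (median -0.53). Fabp5, a fatty-acid binding protein, was at 304 to 1685 CPM (median 1019) against 459 to 5132 (median 2138), lower by 1.32 ± 0.09 in 17 of 18 files (adjusted p = 6.0e-11). Gpnmb, a glycoprotein of lipid-laden macrophages, was lower by 1.30 and Spp1, osteopontin, by 0.89. Apoe (0.07), Trem2 and Acp5 (-0.20) did not pass.

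Of 23 genes of glycolysis and hypoxia, 20 were lower and 1 higher (median -0.42). Pgam1, a glycolytic mutase, was at 279 to 613 CPM (median 476) against 458 to 835 (median 680), lower by 0.57 ± 0.03 in 18 of 18 files, and Aldoa, aldolase, by 0.50. Slc2a3, a glucose transporter, was the gene that was higher (0.79). The 17 tested antioxidant genes were all lower (median -0.55), among them Txn1, thioredoxin, by 0.55 and Hmox1, which breaks down haem, by 0.87. By library totals 16 of the 17 were lower. Of 15 genes of iron and haem handling, 11 were lower, Steap3 by 0.69, while Hfe, which limits iron uptake, was higher by 0.54. The ferritin genes Fth1 and Ftl1 and the glycolytic gene Gapdh have near-identical processed copies, so their counts are uncertain.

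Lysosomal genes were lower in 13 of 19 cases and higher in 3 (median -0.20). Ctsl, cathepsin L, was at 676 to 1091 CPM (median 876) against 704 to 3341 (median 2105), lower by 1.26 ± 0.08 in 18 of 18 files. Ctsc, the activator of serine proteases, was higher by 0.48. Of 22 matrix genes, 13 were lower and 5 higher (median -0.62): Thbs1, thrombospondin, was lower by 1.04 and Tgfbi, a TGF-β-induced matrix gene, higher by 0.72 (749 to 1407 CPM against 397 to 844, 18 of 18 files). Of 20 genes of TGF-β ligands, activation and response, 8 were higher and 5 lower (median 0.02).

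Most secreted signals were lower. Of 19 cytokine genes, 14 were lower and 3 higher (median -0.39). Il6 was at 1.37 to 116 CPM (median 16.1) against 11.9 to 569 (median 92.3), lower by 2.43 ± 0.22 in 18 of 18 files. Il1a, an alarm cytokine, was lower by 1.73 and Lif by 1.78. Il1b, the secreted partner of Il1a, did not pass (0.19 ± 0.12, adjusted p = 0.19). Pdgfb, a growth factor for pericytes and fibroblasts, was higher by 0.70 in 18 of 18 files.

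Of 19 chemokine genes, 12 were lower and 5 higher (median -0.38). Ccl24, which draws eosinophils, was lower by 2.27 and Ccl6 by 1.38. Cxcl16 was at 353 to 927 CPM (median 613) against 142 to 720 (median 347), higher by 0.71 ± 0.08 in 18 of 18 files. Cxcl9, an interferon-γ chemokine, was higher by 1.57 with a wide error (± 0.56, 15 of 18 files, adjusted p = 0.024).

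Among chemokine receptors, 4 of 10 were higher and 2 lower. Besides Ccr2, Cxcr3 (1.26), the receptor of Cxcl9, and Cxcr4 (0.36) were among the higher ones, and the scavenging receptor Ackr3 (-1.80) and Ccr1 (-0.27) were the lower ones. Ccr1 passed with all libraries, at -0.27, but was at 0.07 in library 1 alone. Of 20 receptors for dying cells and debris, 7 were higher and 10 lower (median -0.17). Axl, a receptor for phosphatidylserine, was at 78.5 to 238 CPM (median 183) against 14 to 121 (median 46), higher by 1.55 ± 0.10 in 18 of 18 files (adjusted p = 2.5e-11). Marco, a scavenger receptor for bacteria, was lower by 2.68 and Mertk, the relative of Axl, by 0.16.

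Interferon response genes were higher in 10 of 25 cases, none lower (median 0.16), with Ifi44 at 0.92 and Ly6e at 0.50. Ifit1 did not pass (-0.36). Without the cells with cavity genes, 4 were higher and 2 lower. Of 24 immediate early and stress genes, which tissue digestion can induce, 14 were higher and 2 lower (median 0.21). The heat-shock genes Hspa1a (0.91) and Hspa1b (1.08) led them, 2 near-identical copies whose reads can be exchanged. The share of mitochondrial molecules was 4.93% and 4.88% at the median, higher with Cx3cr1 in 9 of 18 files.

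Transcription factors of macrophages split evenly, 11 of 28 higher and 10 lower (median -0.03). Mef2c (0.87), Runx3 (0.63), Irf4 (0.59) and Batf3 (0.55) were higher. Tfec, a relative of Mitf, was lower by 0.69, Bhlhe41 by 0.54 and Cebpb by 0.28. Spi1 (0.03), which specifies the lineage, did not pass. The integrins also split, with 6 of 12 higher and 5 lower. Itgam (CD11b) was lower by 0.76 and its partner Itgb2 by 0.69, while Itgal, which also pairs with Itgb2, was higher by 0.35. Complement genes other than C1q were lower in 6 of 12 cases and higher in 2, with C5ar2 higher by 0.23 and properdin, Cfp, lower by 0.49. The phagocyte oxidase was mixed, with 3 of 7 genes higher and 1 lower (median 0.03): its core subunit Cybb was higher by 0.31 and the partner subunit Cyba lower by 0.36.

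**Figure D3:**
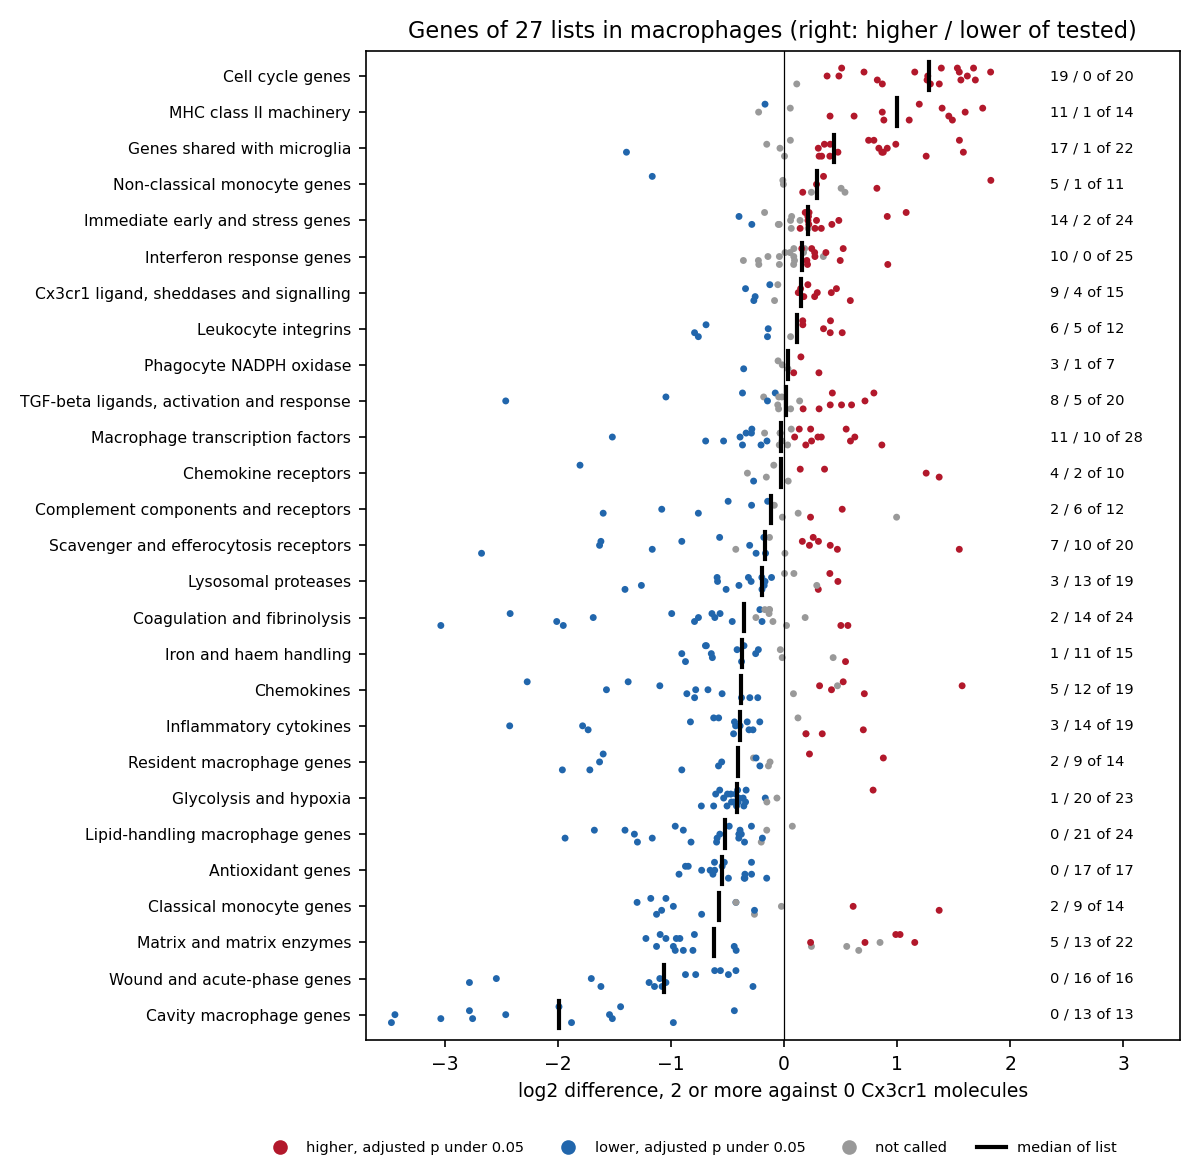
Log2 difference (horizontal axis) of every tested gene of 27 lists between macrophages with 2 or more and with 0 Cx3cr1 molecules; colours mark genes past the test and black bars the list's median. Medians ran from -1.99 for cavity genes to 1.28 for cell cycle genes.

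Markers of macrophages and of other cells were summed on both sides. The 7 macrophage markers came to 7738 to 19490 CPM (median 14670) with Cx3cr1 and 6872 to 18370 (median 11240) without, but were higher in only 7 of 18 files. Of the 7, all tested, 4 were higher and 2 lower. Apoe, which did not pass, had file medians of 6697 to 10770 CPM over the numbers of Cx3cr1 molecules and made up much of the sum. Classical monocyte markers came to medians of 657.1 and 533.5 CPM, higher in 18 of 18 files, although 1 of the 7 tested was higher and 4 were lower. The 1 that was higher, Ccr2, made up most of the median sum with Cx3cr1. Non-classical monocyte markers came to medians of 522.9 and 401 CPM, higher in 17 of 18 files, with 2 of 5 tested higher and 0 lower. Spn reached at most 54.2 CPM in a file. Ace, Cd300e and Adgre4 had file medians of at most 5.42 CPM at any number of Cx3cr1 molecules. The sum therefore came mostly from the list's other members, Nr4a1 and Treml4, and Treml4 did not pass the test. The 7 B cell markers came to 52.52 to 178 CPM (median 90.93) with Cx3cr1 and 8.983 to 121.1 (median 33.1) without, higher in 18 of 18 files, with Ighm at 1.66 and Cd79b at 1.07. The 10 dendritic cell markers came to 82.64 and 66.23 CPM (higher in 16 of 18 files), with 4 of 6 tested higher, among them Dpp4 (1.08), Cd209a (0.85) and Flt3 (0.78). Fibroblast markers came to 40.4 to 1182 CPM (median 313.1) and 22.85 to 1866 CPM (median 127.1), higher in 11 of 18 files, with Dcn at medians of 19.7 and 6.2 CPM and passing the test. Platelet markers came to 282.2 to 1218 CPM (median 816.1) and 550.8 to 2385 CPM (median 1429), higher with Cx3cr1 in only 1 of 18 files. Only 2 platelet markers were high enough to be tested, and both were lower, so these sums describe few genes of the list. Endothelial markers came to medians of 48.98 and 95.87 CPM, higher with Cx3cr1 in 1 of 18 files, and neutrophil markers to 93.88 and 114.6 CPM, higher in 3. Of the endothelial markers 4 were tested and 2 were lower. Cdh5 and Cldn5 of that list had file medians of at most 1.56 CPM at any number of Cx3cr1 molecules. T cell, NK cell, mast cell, mural, cardiomyocyte and erythroid markers came to medians of 2.894 to 20.34 CPM on either side. Of all these markers, Gp1bb of the platelet list was the one at 0. Whether these transcripts were made by the macrophages, or came from attached cells or free RNA, was not tested. Without cells that held 2 or more collagen molecules (28.91% of positive and 25.46% of negative cells), the medians were 1.14 for MHC class II, 1.33 for the cell cycle and 0.48 for the microglial genes.

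**Figure D4:**
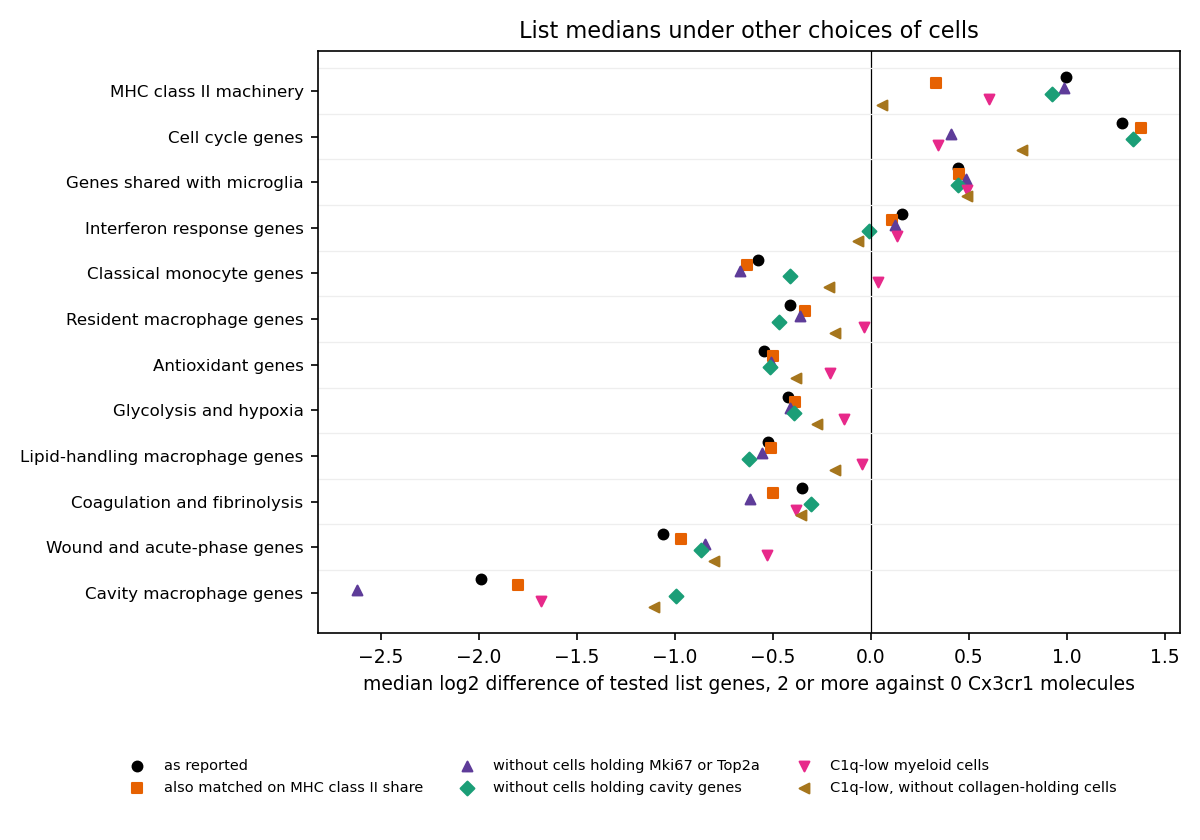
Median log2 difference of the tested genes of selected lists (horizontal axis) for the macrophages as reported, for cells also matched on MHC class II, without cells holding Mki67 or Top2a, without cells holding cavity genes, and for C1q-low myeloid cells with and without cells that hold collagen. Matching on class II took that list from 0.99 to 0.33, and leaving out cells with Mki67 or Top2a took the cell cycle list from 1.28 to 0.41. Genes of these lists were used to match or leave out cells, so part of each fall was built in. Fewer cell cycle genes were tested without the cells with Mki67 or Top2a.

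The levels were also followed over the number of Cx3cr1 molecules per cell, in all 14451 macrophages and with no matching on depth. The 5 classes held 6290 cells with 0 molecules, 1615 with 1, 1833 with 2 to 3, 1922 with 4 to 7 and 2791 with 8 or more, at median depths of 21910, 19967, 17417, 17432.5 and 22602 molecules. These values describe the same cells as the comparison above and are given with no test.

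Tmem119 climbed through the classes, with file medians of 18.1, 23.7, 35.8, 50.2 and 63.6 CPM, and was higher at 8 or more than at 4 to 7 in 17 of 18 files. Fcrls did so too, from 310 to 944 CPM, and was higher at the last step in 18 of 18 files. Arg1 went down at each step, from 1387 over 871, 737 and 518 to 315 CPM. Slpi went from 421 to 24.6 CPM, with most of the drop by the class of 4 to 7 (27.5).

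MHC class II and Ccr2 did not follow the Cx3cr1 count to its end. H2-Aa was at medians of 594, 1276, 2181, 2622 and 1560 CPM, and was lower at 8 or more than at 4 to 7 in 15 of 18 files. Ccr2 went from 216 CPM at 0 and 406 at 1 to 721 at 4 to 7 and 628 at 8 or more, with the last step down in 15 of 18 files. Il1b turned as well, from 850 CPM at 4 to 7 to 539 at 8 or more, lower in 18 of 18 files.

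Mki67 had the opposite form. Its medians were 84.1, 96.2, 109 and 113 CPM up to 7 molecules and 233 CPM at 8 or more, with the last step up in 17 of 18 files. The class with 8 or more molecules thus held the highest levels of Tmem119, Fcrls and Mki67 of the 5, but not of H2-Aa or Ccr2. F7 went from 22.2 over 13.6, 9.78 and 4.91 to 3.53 CPM, and F10 from 65.5 to 10.7.

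**Figure D5:**
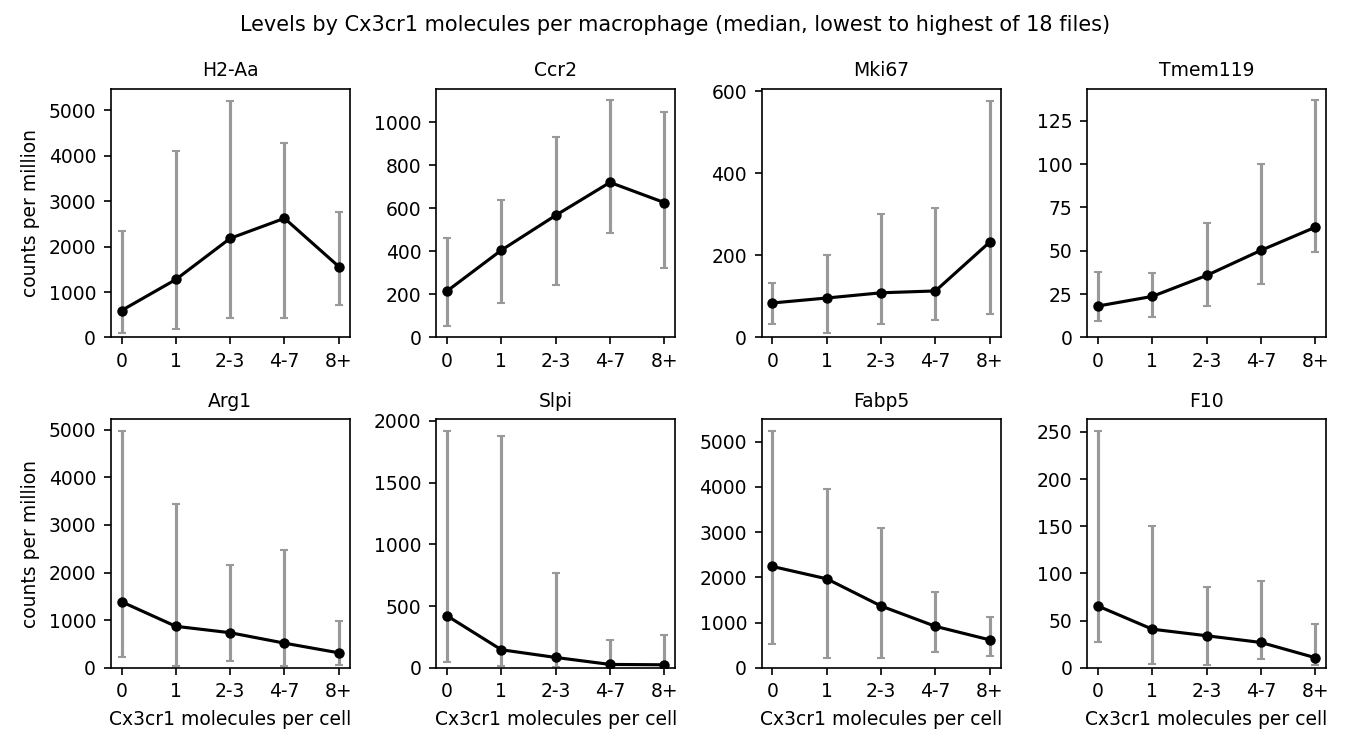
Level of 8 genes (vertical axis, CPM) by the number of Cx3cr1 molecules per macrophage (horizontal axis); points are the median and bars the lowest to highest of 18 files. H2-Aa and Ccr2 are highest at 4 to 7 molecules (2622 and 721 CPM), and Mki67 and Tmem119 at 8 or more (233 and 63.6 CPM).

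Cells with a single Cx3cr1 molecule were set against other cells with 0 that had not been drawn before, which left 12 files and 746 cells a side. The cells left were deep, at 28625 molecules per cell with 1 Cx3cr1 molecule and 29183 with 0 (median of file medians). All 1615 cells with 1 molecule were at 17733, so the result covers the deeper ones only. In edgeR's test, 2 of 8756 genes were higher (0.0228%) and 2 lower (0.0228%), against 319 (3.64%) and 426 (4.87%) at an unadjusted p under 0.05; DESeq2 called 13 and 20. The 2 higher were H2-DMb1 (0.69 ± 0.12, 12 of 12 files) and Mcm6 (0.52), and the 2 lower Prg4 (-1.73, 10 of 12 files) and the lysosomal gene Pld3 (-0.30); they are named because so few passed. Drawn from all cells with 0, which shares cells with the main comparison, 18 files and 1615 cells a side gave 135 higher (1.56%) and 132 lower (1.53%) of 8651 genes. In that draw 8 of 12 tested MHC class II genes were higher (median 0.73), 7 of 22 microglial genes were higher and 1 lower (median 0.22), and 1 of 20 cell cycle genes was higher (median 0.31).

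To see where the differences were particular to macrophages, the comparison was repeated in C1q-low myeloid cells, which held Csf1r but less than 0.1% C1q and met the other limits, with 1507 cells a side from 18 files. Of 5892 genes, 492 were higher with Cx3cr1 (8.35%) and 372 lower (6.31%). The genes higher by the largest amount were Fcrls (1.72 ± 0.24), F11r (1.44), Ccr2 (1.31 ± 0.20), Pou2f2 (1.28) and Clec4a3 (1.24). The lowest were the stromal genes Ctgf (-4.80), Bgn (-4.19), Sparc (-3.97), Mfap4 (-3.95) and Lox (-3.76). On the side without Cx3cr1, Bgn was at a file median of 819 CPM and Sparc at 1366 CPM, against 15.7 and 40.2 CPM with it. The class called myeloid therefore held much stromal RNA on that side, and whether stromal cells were among its cells was not tested. Without cells that held 2 or more collagen molecules, 219 genes were higher (3.90%) and 229 lower (4.08%).

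The difference between the 2 comparisons was tested in 1 fit over 10964 genes, of which 727 (6.63%) had a more positive Cx3cr1 difference in macrophages and 654 (5.96%) a more negative one. Without the collagen-holding cells, in 16 files and 9514 genes, the counts were 141 (1.48%) and 103 (1.08%). H2-Aa differed by 0.63 in C1q-low cells, and the difference of 0.82 ± 0.18 from macrophages passed the test (adjusted p = 0.0022; 1.52 without collagen-holding cells, adjusted p = 2.9e-06). Ciita did so as well (1.18 ± 0.20, adjusted p = 2.6e-04).

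Spn (0.81, adjusted p = 0.0089) had a larger positive difference in macrophages and F10 (-1.05, adjusted p = 6.1e-04) a larger negative one, and both passed without the collagen-holding cells. Tmem119 passed with all cells (0.71, adjusted p = 0.048) and not without the collagen-holding ones (0.17, adjusted p = 0.83). For Ccr2 (0.08 ± 0.23, adjusted p = 0.92), Arg1 (-0.10 ± 0.29, adjusted p = 0.92), Fcrls (-0.45 ± 0.24, adjusted p = 0.24), Mki67 (0.71 ± 0.35, adjusted p = 0.19) and F7 (-0.33 ± 0.30, adjusted p = 0.56) the difference did not pass, which does not show that the 2 cell classes behaved alike.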

How the data were processed

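The deposited tables hold error-corrected molecule counts per cell and gene, 1 table per sample tag, made by the authors, per the file headers, with the BD Rhapsody WTA Analysis Pipeline (1.10 for libraries 2 and 3, 2.0b1 for library 1); the headers name GRCm38 and GENCODE M19. Cells under 200 genes were left out, sides were matched and counts summed per file and side (Python 3.11.15), and sums were fitted with edgeR 4.0.16 (R 4.3.3): TMM factors, filterByExpr, quasi-likelihood F test, file as a block, Benjamini-Hochberg adjustment over all genes tested after removal of the genes that chose the cells, threshold 0.05. CPM are molecules per 1000000 of the summed total. The fit was run on simulated counts in which few genes were changed, equally in both directions. That simulation therefore does not show its error rate where 47.5% of genes were called. Named genes were the 12 largest and 12 lowest differences with a pooled level of 20 CPM on a side and the same direction in at least 80% of files, and up to 2 each way from each of 27 lists; the lists' other members are printed where they show its make-up, as are the genes of the fixed pathway list. Members, lists and tests were chosen with earlier results of these data known. Libraries shared 4, 3 and 0 cell barcodes by pair, no 2 tables were identical, and Scrublet's automatic threshold marked 0, 1 and 1 cells, so it had not worked; leaving out the 2% highest scores was tried instead. Alternatives were other size factors, DESeq2 1.42.0, filters, draws, thresholds, thinning and leaving out libraries or cell classes. Of 465 list genes, 3 were not in the tables. Some list members are not reported here.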

Additional observations from a re-analysis of the deposited data

Results flagged for a closer look

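Within single libraries, 33 sets of per-file differences were examined for a file far from the rest, of which chance marks about 1 in 20, and 2 were marked. In library 2 the log2 difference of F7 between the sides was 0.70 in the highest file, which held 5 molecules with Cx3cr1 and 2 without, while the other 4 files were below 0. In library 1 the difference of Adam10 was -0.43 in the lowest file. Neither file was left out of a result. The other results are tested differences between the Cx3cr1 comparison in macrophages and the same in C1q-low myeloid cells. The 5 most positive were all genes of connective tissue: Wisp2 (5.44), Sfrp2 (5.27), Prelp (5.26), Bgn (5.23) and Comp (4.96). Of these, Wisp2, Sfrp2, Prelp and Comp were at 0.837 to 6.59 CPM on either side in macrophages and at 22.2 to 89 CPM in C1q-low cells without Cx3cr1, and without the cells that held 2 or more collagen molecules Bgn was at 1.20 (adjusted p = 0.023) and the other 4 were not tested. The 5 most negative were Mmp12 (-1.86), a macrophage elastase, Adgre4 (-1.51), an adhesion receptor of non-classical monocytes, Hp (-1.42), haptoglobin, Ms4a8a (-1.39) and Slc7a2 (-1.36), an arginine transporter. Without the collagen-holding cells these were at -1.52, -0.85, -1.33, -1.11 and -0.74, and those of Adgre4 (adjusted p = 0.21) and Slc7a2 (adjusted p = 0.46) no longer passed.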

How the results depend on the processing

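Of 112 named genes in macrophages with 2 or more Cx3cr1 molecules against 0, 84 kept direction and side of the threshold under each of the 26 settings in which they were tested. Some genes were not tested in some settings, which left 2851 values. Of these, 2775 kept both, 71 kept the direction but not the call, and 5 turned. Those were Itgax to -0.14 (matched on MHC class II), Ccr1 to 0.0726 (library 1 alone), and Mgl2 to -0.56 and Rac2 to -0.00275 (library 2 alone). The last was Adam10, to 0.10 (without cells with cavity genes, adjusted p = 0.033), where the cause was not tested. The setting of 20 or more cells a side could change nothing, since every file had at least 138. Genes higher and lower numbered 3594 and 1622 by library totals and 1278 and 1417 without the file block, both of 10376 tested. After thinning to 1000 molecules they were 582 and 580 of 3627 tested. Of 2269 genes called in the main comparison and tested after thinning, 1086 were still called in the same direction and 142 differed in sign. Genes higher and lower numbered 580 and 740 of 10277 in library 2 alone and 997 and 1000 of 10075 in library 3 alone. With a library left out they were 1590 to 2482 and 1604 to 2452, of 10065 to 11678 tested, the lowest without library 1. For 1 molecule against 0 they were 13 and 20 by DESeq2, 96 and 116 of 23194 genes with no filter, and 11 and 7 in a second draw. They were 0 and 0 without the block and 0 to 19 and 0 to 6 with a library left out. In libraries 1, 2 and 3 alone they were 25 and 12, 1 and 8, and 0 and 0. Drawn from all zeros they were 135 and 132. In C1q-low cells DESeq2 called 636 lower, no filter 1133 of 24091 lower and no block 286 higher. Leaving out a library gave 278 to 338 higher and 239 to 347 lower. Library 2 alone gave 20 and 18, library 3 alone 110 and 166, and leaving out collagen-holding cells 219 and 229. For the difference between the 2, relative log expression gave 431 lower, totals 331 lower and DESeq2 1260 higher. No filter gave 1252 of 27763 higher, a filter of 10 CPM 379 of 7731 higher and no block 473 and 183. Leaving out a library gave 328 to 634 higher and 237 to 605 lower. Library 1 alone gave 345 and 350, library 2 alone 53 and 11 and library 3 alone 221 lower. Leaving out collagen-holding cells gave 141 and 103. The median share of cells with Cx3cr1 was 26.58% after thinning to 5000 molecules and 41.27% to 47.84% with a library left out. Settings on collagen, cavity genes and the draw from all zeros, and those on the block or single libraries outside the main comparison, were chosen after seeing the data. The pairing is by file, both sides being drawn within each, and the counts without the file block are those above; replicate numbers pair nothing further, since the 3 libraries form 1 group. Shallow cells limit the meaning of 0 molecules: a cell with 0 may express Cx3cr1.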
